A study of Mus musculus with 10 samples.

Results

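The 48 genes described here encode the enzymes that make, remove or repair reactive oxygen species and reactive aldehydes, together with the NRF2 factor that switches many of them on and the metal-binding metallothioneins. They were taken by gene symbol, with earlier results of these data known. All 48 were found in the count table of 38962 genes, and all 48 passed the filter on low counts that left 22088 genes for testing. Some of the aldehyde dehydrogenases were singled out by the study from these same libraries. Other members, among them Gpx7, Xdh, Nqo1, Maob and Alox15, are in its lists of changed genes. The direction of all these genes is therefore not independent evidence.

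RNA was sequenced from the femurs of 5 aged male C57BL/6J mice (22 months) and 5 young male C57BL/6J mice (2 months), with 1 library per mouse. The femurs had been flushed of marrow and pulverized, and the libraries were made after ribosomal RNA depletion and poly-A selection. Aged mice came from the colony of the National Institute on Aging at 16 months and were then kept in house, whereas young mice came from the Jackson Laboratory, so age and supplier cannot be told apart. The study asked how gene expression of the bone differs between young and aged mice.

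Superoxide formed by NADPH oxidases, xanthine oxidase and mitochondria is turned into hydrogen peroxide by superoxide dismutases, and the peroxide is then removed by catalase, glutathione peroxidases and peroxiredoxins. The peroxidases are recharged by glutathione and thioredoxin, whose reducing power comes from NADPH. Peroxide that attacks unsaturated lipids leaves reactive aldehydes, which aldehyde dehydrogenases oxidize to acids. In bone, oxidants limit osteoblasts and favor osteoclasts, and marrow phagocytes, red cell precursors and platelets carry their own sets of these enzymes.

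The libraries of aged mice held 31788232 to 45075335 counts and those of young mice 33447009 to 40395050 counts, and the counts of the members ran from 7 to 25364 per library. Levels are given as CPM, the counts of a gene relative to the size of its library after TMM scaling. The RNA held the markers of several tissues. Summed markers of osteoblasts and osteocytes reached 18660 to 46310 CPM in aged mice and 43440 to 92160 CPM in young mice, with 5 of the 13 genes lower and none higher in aged mice, and no marker was at 0 in all libraries. Skeletal muscle markers summed to 38470 to 106000 CPM in aged mice and 22630 to 66700 CPM in young mice. Markers of marrow cells were also present although the femurs had been flushed. A single noncoding RNA, Gm26917, took 16.1% to 31.0% of the counts in aged mice and 14.5% to 24.0% in young mice. In such whole-tissue RNA, fewer cells of a type and less RNA per cell cannot be told apart.

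In aged bone 5 of the 48 genes changed at an adjusted p of at most 0.05 (edgeR quasi-likelihood test with Benjamini-Hochberg adjustment over all tested genes). Expression of the aldehyde dehydrogenases Aldh1l1 and Aldh3b2, the oxidant-producing enzyme Xdh and the glutathione reductase Gsr was higher, and expression of the glutathione peroxidase Gpx7 was lower. The 5 genes are 10.4% of the members, against 7.29% of all tested genes. By direction, 8.33% of the members were higher, against 3.68% of all genes, and 2.08% were lower, against 3.61% of all genes. The values of aged and young mice did not overlap for 4 members (Gpx7, Gsr, Aldh3b2 and Xdh), or 8.33%, against 7.80% of all genes. A further 10 members (20.8%, against 6.7% of all tested genes) had an adjusted p above 0.05 and up to 0.1 in the same test. Of these 8 had higher and 2 had lower means in aged mice. At an unadjusted p of at most 0.05, 14 members were higher and 8 lower, 45.8% in all, against 25.7% of all tested genes (13.3% higher and 12.4% lower). The median log2 fold change of the 48 members was 0.10, beside 0.01 for all tested genes.

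**Figure D1:**
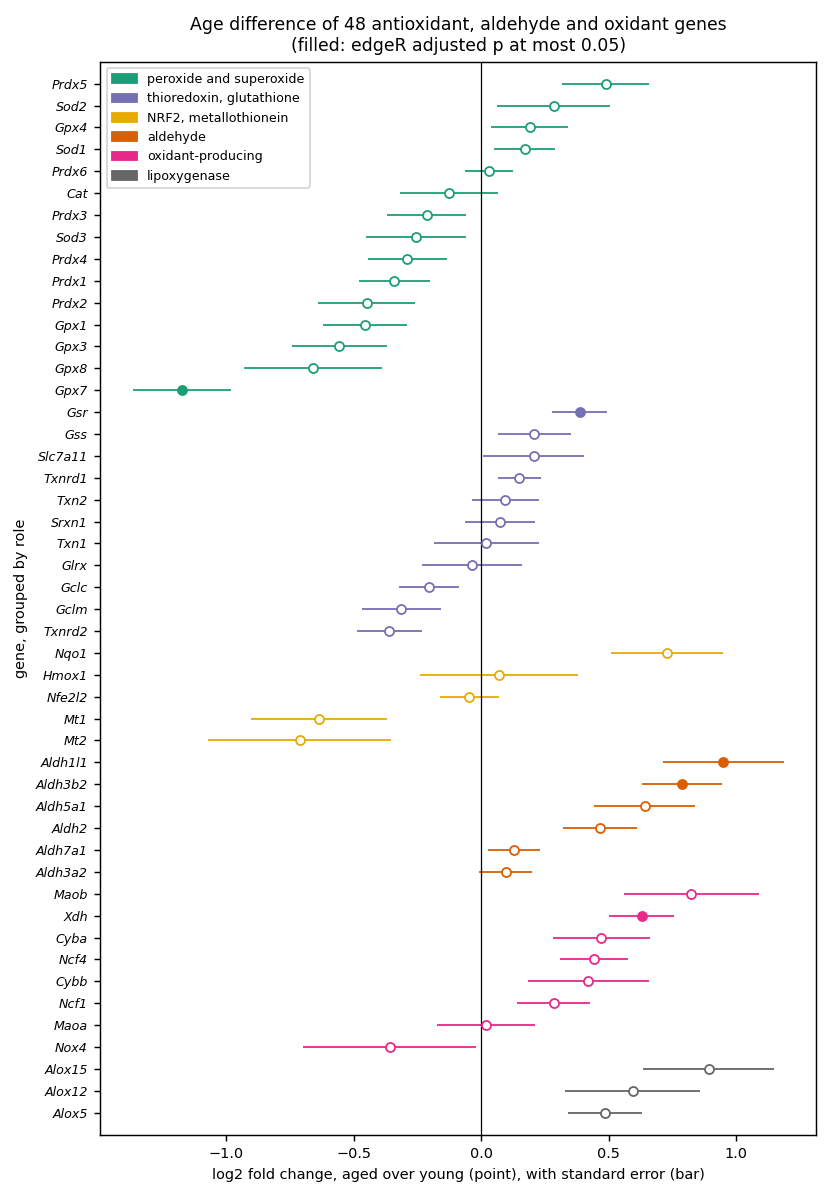
Log2 fold change of each of the 48 genes, aged over young (points; bars give the standard error), with genes on the vertical axis grouped by role and colored by it; filled points passed an adjusted p of 0.05 in edgeR's quasi-likelihood test. The lowest point is Gpx7 at -1.17 and the highest is Aldh1l1 at 0.95, and all 6 aldehyde dehydrogenases and all 3 lipoxygenases lie right of 0.

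The roles differed in the side on which their members lay, read here from the signs of fold changes and not from a test. Of the 15 superoxide and peroxide enzymes 10 had negative and 5 positive log2 fold changes, with a median of -0.26. All 6 aldehyde dehydrogenases were positive, with a median of 0.55, but Aldh3a2 and Aldh7a1 turned negative when the libraries were scaled by total counts alone. Some of these 6 had been singled out by the study as raised in the same libraries, so their common sign describes the chosen list. Of the 8 oxidant-producing enzymes 7 were positive, with a median of 0.43, and Maoa turned negative with that scaling. The 3 lipoxygenases were positive under each scaling tried. The 11 genes of thioredoxin and glutathione supply had a median of 0.07, and 4 of the 7 positive ones (Srxn1, Txn1, Txn2 and Txnrd1) turned negative with scaling by total counts, which moved the median of all tested genes to -0.16.

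Glutathione peroxidases use glutathione to reduce hydrogen peroxide and lipid peroxides. Gpx1, Gpx3 and Gpx4 place selenocysteine in their active site, which is written by a TGA codon, and Gpx7 and Gpx8, which reside in the endoplasmic reticulum, use cysteine at that place. The stretches of coding sequence around this codon are shown because they separate the cysteine forms from the selenium-dependent ones. The codon does not sort the genes by their age difference. Of the cysteine forms Gpx7 was called and Gpx8 was not, and Gpx1 and Gpx3 also had negative log2 fold changes, whereas Gpx4 had a positive one. The stretches are from GENCODE M21 transcripts on GRCm38, 5′ to 3′ on the coding strand, with the active-site codon in capitals.
Gpx7 (chr4:108403418-108403447, minus strand): aacgtagctagcgaaTGTggcttcacagac
Gpx8 (chr13:113045649-113045678, minus strand): aacgtggctagtgacTGCcgcttcacagac
Gpx1 (chr9:108339436-108339465, plus strand): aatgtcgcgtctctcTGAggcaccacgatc
Gpx3 (chr11:54907241-54907270, plus strand): aacgtagccagctacTGAggtctgacagac
Gpx4 (chr10:80054722-80054751, plus strand): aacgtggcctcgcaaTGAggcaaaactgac
The TGA of Gpx1, Gpx3 and Gpx4 is annotated as selenocysteine, and Gpx7 and Gpx8 carry the cysteine codons TGT and TGC.

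Gpx7 (ENSMUSG00000028597.11, chr4:108400390-108406961 on GRCm38) uses peroxide in the endoplasmic reticulum to help oxidize proteins as they fold. It was measured at 2.40, 2.09, 2.01, 1.78 and 3.42 CPM in aged mice 1 to 5, against 5.31, 5.44, 6.69, 4.93 and 4.13 CPM in young mice 1 to 5. The highest aged mouse lay below the lowest young mouse. Gpx7 averaged 2.34 ± 0.64 CPM in aged mice and 5.30 ± 0.93 CPM in young mice (SD, n = 5 each), a log2 fold change of -1.17 with a standard error of 0.19 and an adjusted p of 0.00349 in edgeR's quasi-likelihood test. The call held under every other scaling, filter, tool and covariate tried and without each mouse in turn. Of the 13 osteoblast and osteocyte markers 5 were lower in aged mice and 8 were not called, and the median log2 fold change of the 13 was -1.17. Those not called were Ibsp (-1.34), Spp1 (-1.17), Mepe (-0.88), Phex (-0.80), Dmp1 (-0.28), Sp7 (-0.25), Runx2 (-0.14) and Sost (0.35). Relative to the summed osteoblast and osteocyte markers, Gpx7 was 0.0684 to 0.108 per 1000 in aged mice and 0.0698 to 0.102 per 1000 in young mice (exact permutation test, two-sided, p = 0.683, adjusted p = 1 over 9 such pairs chosen after the values were seen; the smallest p that 5 against 5 mice allow is 0.00794). The collagen genes Col1a1 and Col1a2 gave 93.4% to 97.2% of that marker sum in aged mice and 95.6% to 96.9% in young mice. Against the other 11 markers the Gpx7 ratio was 1.31 to 3.26 per 1000 in aged mice and 1.93 to 2.77 per 1000 in young mice (exact permutation p = 0.778).

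Gpx8, the close relative of Gpx7 in the same compartment, averaged 6.32 ± 2.101 CPM in aged mice and 10.0 ± 3.21 CPM in young mice and did not pass the test (log2 fold change -0.66, edgeR adjusted p = 0.148). Young mouse 5, at 5.33 CPM, lay within the aged range of 3.94 to 8.25 CPM. The ratio of Gpx8 to the osteoblast and osteocyte marker sum was 0.151 to 0.362 per 1000 in aged mice and 0.123 to 0.183 per 1000 in young mice (exact permutation p = 0.0714, adjusted p = 0.339 over the 9 pairs).

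Gpx3, the glutathione peroxidase secreted into plasma, was at 263, 302, 233, 146 and 344 CPM in aged mice 1 to 5, against 307, 419, 375, 413 and 383 CPM in young mice 1 to 5. Only aged mouse 5 reached into the young range, above young mouse 1. The log2 fold change was -0.56 with a standard error of 0.19, and the adjusted p of 0.0851 in edgeR's test missed the threshold. Gpx1, the cytosolic form that is abundant in red cell precursors, was at 258, 391, 248, 295 and 285 CPM in aged mice and at 332, 460.0, 315, 529.5 and 392 CPM in young mice. Aged mouse 2 lay within the young range, and the log2 fold change was -0.46 (standard error 0.17, edgeR adjusted p = 0.104). Per kilobase of gene length these were the most abundant members in both groups, Gpx1 at 205 CPM per kilobase in aged mice and 282 in young mice, and Gpx3 at 142 in aged mice and 209 in young mice. Gpx4, which protects membranes from lipid peroxides, averaged 96.6 ± 16.8 CPM in aged mice and 84.7 ± 16.3 CPM in young mice (edgeR adjusted p = 0.45). Gpx4 has 2 annotated pseudogenes in the table, the more abundant of which averaged 2.33 CPM in aged mice and 1.91 CPM in young mice.

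Peroxiredoxins clear peroxide with a reactive cysteine that thioredoxin or glutathione restores, and none of the 6 passed the test. Prdx5, found in mitochondria, peroxisomes and cytosol, had the smallest p of the 6. It was at 44.9, 81.2, 51.5, 53.3 and 57.7 CPM in aged mice, against 46.1, 39.6, 51.4, 40.1 and 28.7 CPM in young mice. Aged mouse 1 lay inside the young range and the other 4 aged mice lay above it, and the log2 fold change was 0.49 with a standard error of 0.17 (edgeR adjusted p = 0.0981). Prdx5 shares exon sequence with Trmt112 on the opposite strand, which averaged 8.13 CPM in aged mice and 8.08 CPM in young mice. Prdx1 and Prdx2, both cytosolic and the second rich in red cells, had log2 fold changes of -0.34 and -0.45 (edgeR adjusted p = 0.143 and 0.161). Prdx3 of mitochondria and Prdx4 of the endoplasmic reticulum were at -0.21 and -0.29, and Prdx6, which also acts on phospholipids, was at 0.03.

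Superoxide dismutases and catalase did not pass the test in either direction. Sod1 of the cytosol averaged 46.7 ± 4.88 CPM in aged mice and 41.5 ± 6.15 CPM in young mice, and Sod2 of the mitochondrial matrix averaged 73.9 ± 20.2 CPM in aged mice and 60.7 ± 16.8 CPM in young mice. The secreted Sod3 averaged 8.19 ± 2.44 CPM in aged mice and 9.78 ± 1.09 CPM in young mice. Cat, the catalase of peroxisomes, averaged 61.4 ± 17.2 CPM in aged mice and 67.1 ± 13.7 CPM in young mice. The adjusted p-values of these 4 genes in edgeR's test ran from 0.389 to 0.713.

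**Figure D2:**
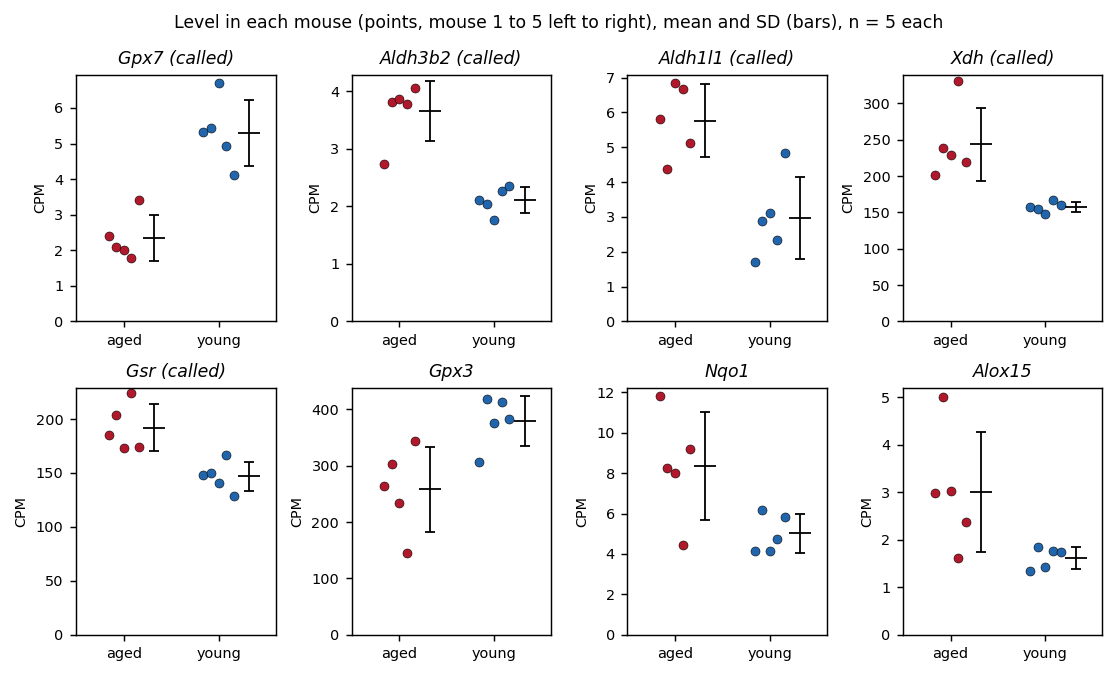
Levels in CPM (vertical axes, each starting at 0) of 8 members in aged mice (red) and young mice (blue), 1 point per mouse, with the mean and SD of 5 mice as bars; panels marked "called" passed an adjusted p of 0.05. Gpx7 is lower in all 5 aged mice than in any young mouse, Aldh3b2, Xdh and Gsr are higher in all 5 aged mice, and for Aldh1l1, Gpx3, Nqo1 and Alox15 the groups overlap.

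Glutathione reductase returns oxidized glutathione to its reduced form with NADPH. Its gene Gsr (ENSMUSG00000031584.16, chr8:33652523-33698163) was at 185, 203, 173, 224 and 174 CPM in aged mice, against 148, 149.9, 141, 166.5 and 129 CPM in young mice. The groups did not overlap, and Gsr averaged 192 ± 21.8 CPM in aged mice and 147 ± 13.8 CPM in young mice (SD, n = 5 each). The log2 fold change was 0.39, or 1.31-fold, with a standard error of 0.11 and an adjusted p of 0.0446 in edgeR's quasi-likelihood test. This call was lost whenever any single mouse was left out (adjusted p 0.0528 to 0.0991). It was also lost with scaling by total counts (adjusted p = 0.455) or by total counts without Gm26917 (0.212), with no filter on low counts (0.0537) and with the mean level of red cell markers as a covariate (0.146).

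The other 10 genes of thioredoxin and glutathione supply did not pass the test. Txnrd2, the mitochondrial thioredoxin reductase and a selenoprotein, was at 34.3, 42.8, 32.9, 27.1 and 38.2 CPM in aged mice and at 44.1, 47.6, 36.3, 51.3 and 45.8 CPM in young mice. Young mouse 3 lay within the aged range (log2 fold change -0.36, standard error 0.13, edgeR adjusted p = 0.0988), and Txnrd2 is 1 of the 11 members that share exon sequence with an opposite-strand gene. Gclm, the modifier subunit of the enzyme that limits glutathione synthesis, was at 74.4, 86.1, 64.3, 55.1 and 70.3 CPM in aged mice and at 81.6, 94.6, 65.5, 117.5 and 75.8 CPM in young mice. Txnrd1, the cytosolic thioredoxin reductase, was at 60.95, 61.7, 56.3, 56.8 and 61.1 CPM in aged mice and at 50.4, 51.7, 59.0, 51.5 and 55.2 CPM in young mice. The groups overlapped for both genes, whose log2 fold changes were -0.31 and 0.15 (edgeR adjusted p = 0.223 and 0.279).

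Gclc, the catalytic partner of Gclm, had a log2 fold change of -0.20, and Gss, which completes glutathione, one of 0.21. Gss shares exon sequence with Acss2 on the opposite strand, which was the more abundant of the pair (20.7 CPM in aged mice and 15.5 CPM in young mice). The thioredoxins Txn1 of the cytosol and Txn2 of mitochondria were at 0.02 and 0.09, Srxn1, which repairs overoxidized peroxiredoxins, was at 0.07, Glrx, which removes glutathione from proteins, was at -0.04, and the cystine importer Slc7a11 was at 0.21. Their adjusted p-values in edgeR's test ran from 0.296 (Gclc) to 0.963 (Txn1).

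NRF2, encoded by Nfe2l2, is held down by KEAP1 and, once freed by oxidants, binds antioxidant response elements together with small MAF proteins. The core of that element, TGACNNNGC, was searched on both strands in RefSeq promoter windows on GRCm38.p6, each running from 250 bases before to 50 bases after an annotated gene start. Windows were matched by symbol to 36 of the 48 members. The core was found in 7 of these 36 (19.4%), beside 14.0% of all 27025 genes with a window and 12.4% of all 32851 windows. The 7 matches are shown with the core in capitals, 5′ to 3′ on the strand that carries it, because they mark the members whose window holds the known NRF2 motif. Sequence outside the windows and the 12 members without a window were not searched, so the 7 are not a list of NRF2 targets. A match is a description of the letters and not a site shown to be bound.
Gclm (chr3:122245415-122245439, minus strand): gtgagagtTGACGGTGCgcccggga
Mt2 (chr8:94172531-94172555, plus strand): agggggtgTGACTCAGCgcgggggg
Nfe2l2 (chr2:75704887-75704911, minus strand): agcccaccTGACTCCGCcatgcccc
Prdx1 (chr4:116685458-116685482, minus strand): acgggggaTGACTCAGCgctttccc
Sod1 (chr16:90220698-90220722, minus strand): cctgagtcTGACCACGCccaccttg
Srxn1 (chr2:152105544-152105568, minus strand): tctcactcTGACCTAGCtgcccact
Txnrd1 (chr10:82859106-82859130, minus strand): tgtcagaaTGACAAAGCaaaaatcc
None of the 7 genes with the core in their window passed the test. Their log2 fold changes had a median of -0.05 and ran from -0.71 (Mt2) to 0.17 (Sod1), with 3 positive and 4 negative. Nfe2l2 itself averaged 44.9 ± 5.34 CPM in aged mice and 46.4 ± 6.49 CPM in young mice (edgeR adjusted p = 0.831), and Keap1 averaged 38.4 ± 3.18 CPM in aged mice and 36.7 ± 4.44 CPM in young mice.

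Nqo1, a quinone reductase long used as a readout of NRF2, was at 11.8, 8.24, 8.01, 4.43 and 9.21 CPM in aged mice, against 4.13, 6.20, 4.16, 4.76 and 5.85 CPM in young mice. Aged mouse 4 lay within the young range and the other 4 aged mice lay above it. The log2 fold change was 0.73 with a standard error of 0.22, and the adjusted p of 0.0582 in edgeR's test missed the threshold, whereas without aged mouse 4 it was 0.0063 in a fit that called 6.54% of all genes. Hmox1, the heme oxygenase that is high in macrophages clearing red cells, ranged from 22.1 to 66.8 CPM in aged mice and from 26.4 to 53.3 CPM in young mice, a wide spread around nearly equal means of 40.7 ± 20.6 CPM in aged mice and 38.9 ± 9.64 CPM in young mice.

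Metallothioneins bind zinc and copper and can take up oxidants, and are induced by metals through the factor MTF1. Mt1 was at 10.8, 15.7, 5.84, 8.13 and 14.3 CPM in aged mice, against 19.0, 16.7, 19.0, 20.9 and 9.88 CPM in young mice. Young mouse 5 lay within the aged range, and the log2 fold change was -0.64 with a standard error of 0.27 (edgeR adjusted p = 0.161). Mt2 was at 0.559, 0.776, 0.304, 0.164 and 0.557 CPM in aged mice and at 0.513, 1.11, 0.901, 0.751 and 0.684 CPM in young mice, which are as few as 7 counts in a library. The groups overlapped and the log2 fold change was -0.71 with a standard error of 0.36 (edgeR adjusted p = 0.227). The metal response core, searched as TGCACNC and TGCGCNC on both strands, was found 3 times in the Mt1 window and 4 times in the Mt2 window, and 3 or more matches were found in 1.97% of all windows. Among members Gclm also had 3 or more, and there one of them overlaps the antioxidant core shown above.

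**Figure D3:**
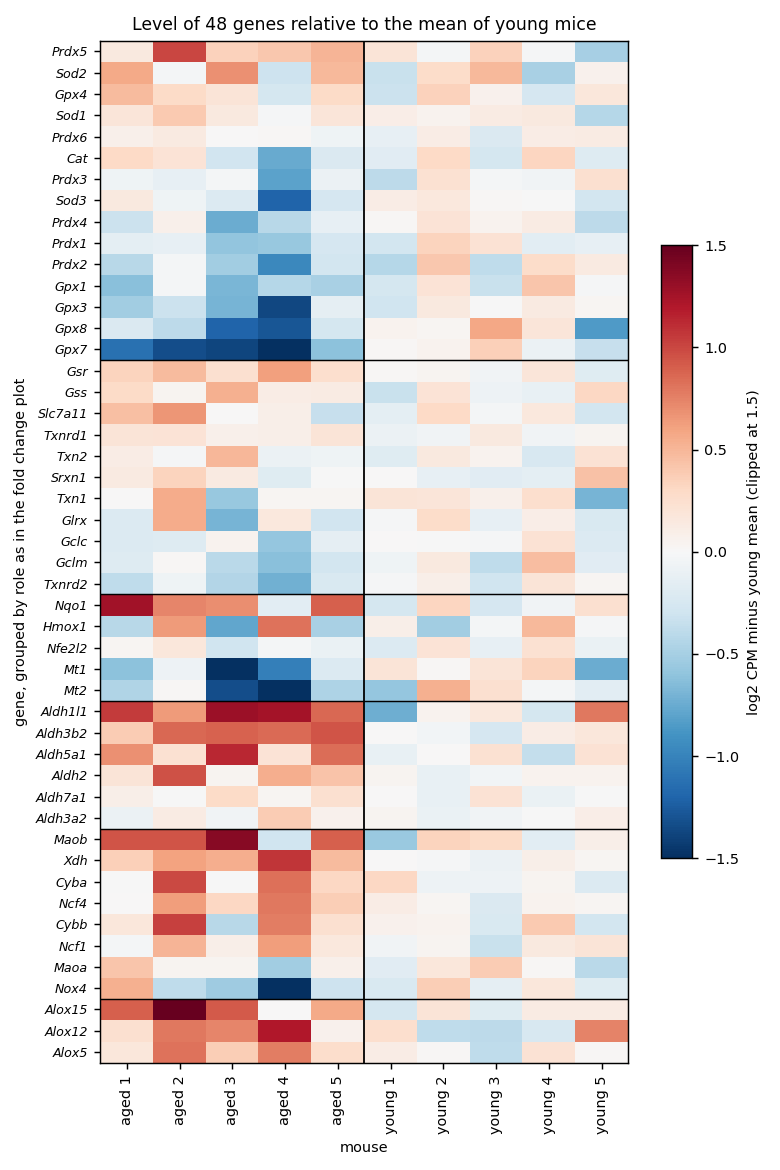
Log2 CPM of the 48 genes (rows, grouped by role) in each of 10 mice (columns, aged mice left of the line), minus the mean log2 CPM of the 5 young mice, with colors clipped at 1.5. Aged mouse 2 held the highest aged value for 22 of the 48 genes and aged mouse 4 the lowest for 22.

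Aldehyde dehydrogenases oxidize aldehydes to acids with NAD or NADP. In aged mice 2 of the 6 were higher (33.3%, against 3.68% of all tested genes) and none was lower. Aldh3b2 (ENSMUSG00000075296.5, chr19:3972328-3981646), whose mouse protein sits on lipid droplets and acts on fatty aldehydes, was at 2.74, 3.82, 3.87, 3.77 and 4.05 CPM in aged mice, against 2.104, 2.04, 1.77, 2.28 and 2.36 CPM in young mice. The lowest aged value, in mouse 1, was still above every young value. Aldh3b2 averaged 3.65 ± 0.52 CPM in aged mice and 2.11 ± 0.23 CPM in young mice (SD, n = 5 each), a log2 fold change of 0.79 with a standard error of 0.16 and an adjusted p of 0.00971 in edgeR's test. The call held without each mouse in turn and was lost with scaling by total counts alone (adjusted p = 0.102). The genome holds a near copy, Aldh3b3, and how reads shared by the pair were counted is not stated.

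Aldh1l1 (ENSMUSG00000030088.15, chr6:90486427-90600203) encodes the dehydrogenase of formyltetrahydrofolate, an enzyme of folate metabolism rather than of lipid aldehydes. It was at 5.82, 4.38, 6.83, 6.68 and 5.11 CPM in aged mice, against 1.69, 2.90, 3.12, 2.34 and 4.83 CPM in young mice. Young mouse 5 lay above aged mouse 2, and the other 4 young mice lay below every aged mouse. Aldh1l1 averaged 5.76 ± 1.04 CPM in aged mice and 2.98 ± 1.18 CPM in young mice (SD, n = 5 each), and the log2 fold change of 0.95 had a standard error of 0.24 and an adjusted p of 0.0293 in edgeR's test. The call was lost without aged mouse 3 or 4 or without young mouse 1, 2, 3 or 4 (adjusted p 0.0502 to 0.0774), with scaling by total counts (0.0669), with the muscle marker covariate (0.0628) and with the red cell marker covariate (0.294).

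Mitochondrial aldehyde dehydrogenases were among the members nearest the threshold. Aldh5a1, which oxidizes succinic semialdehyde and the lipid peroxidation product hydroxynonenal, was at 4.84, 3.52, 6.60, 3.47 and 5.39 CPM in aged mice and at 2.80, 3.02, 3.54, 2.36 and 3.51 CPM in young mice. Aged mice 2 and 4 lay within the young range (log2 fold change 0.64, standard error 0.20, edgeR adjusted p = 0.0636). Aldh2, which clears acetaldehyde and hydroxynonenal, was at 109.9, 187, 99.5, 141 and 129.7 CPM in aged mice and at 99.6, 89.1, 93.4, 100.3 and 100.1 CPM in young mice. Only aged mouse 3 lay within the narrow young range (log2 fold change 0.47, standard error 0.15, edgeR adjusted p = 0.0665). Aldh7a1, of lysine breakdown, was at 17.9, 16.8, 20.6, 17.2 and 19.8 CPM in aged mice and at 16.9, 15.6, 19.6, 15.7 and 16.8 CPM in young mice, with overlapping groups and an edgeR adjusted p of 0.454. Aldh3a2, the fatty aldehyde dehydrogenase of the endoplasmic reticulum, averaged 28.3 ± 3.86 CPM in aged mice and 26.5 ± 1.40 CPM in young mice.

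Xanthine dehydrogenase breaks down purines and, in its oxidase form, releases superoxide and peroxide. Its gene Xdh (ENSMUSG00000024066.9, chr17:73883895-73950196) was at 201, 239, 229, 330.5 and 219.6 CPM in aged mice, against 158, 155, 148, 167 and 160.4 CPM in young mice. The groups did not overlap, and Xdh averaged 244 ± 50.4 CPM in aged mice and 158 ± 7.08 CPM in young mice (SD, n = 5 each). The log2 fold change was 0.63, or 1.55-fold, with a standard error of 0.13 and an adjusted p of 0.0111 in edgeR's test. Aged mouse 4 was the farthest from the others, and without it the log2 fold change was 0.50 with an adjusted p of 0.00789. The call was lost with scaling by total counts (adjusted p = 0.130), with total counts without Gm26917 (0.0598) and with the red cell marker covariate (0.104).

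The phagocyte NADPH oxidase makes the superoxide burst of neutrophils and macrophages, and its 4 measured subunits all had positive log2 fold changes, with none called. Ncf4, a cytosolic subunit, was at 45.8, 70.4, 56.1, 78.9 and 58.5 CPM in aged mice and at 49.3, 46.3, 39.0, 47.0 and 46.4 CPM in young mice. Aged mouse 1 lay within the young range and the other 4 aged mice above it (log2 fold change 0.44, standard error 0.13, edgeR adjusted p = 0.0595). Cyba, the smaller membrane subunit, was at 39.9, 79.3, 39.9, 71.0 and 49.8 CPM in aged mice and at 49.7, 38.1, 38.1, 41.3 and 34.9 CPM in young mice. Aged mice 1 and 3 lay within the young range (log2 fold change 0.47, standard error 0.19, edgeR adjusted p = 0.144). Cybb, the catalytic subunit, averaged 134 ± 50.3 CPM in aged mice and 100.5 ± 19.2 CPM in young mice, and Ncf1, a cytosolic organizer, averaged 182 ± 36.5 CPM in aged mice and 149 ± 20.2 CPM in young mice. Ncf1 shares exon sequence with the opposite-strand gene Gtf2ird2, at 38.9 CPM in aged mice and 32.4 CPM in young mice.

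Phagocyte markers matched these subunits only in part. The 13 neutrophil markers, none of them called, summed to 1515 to 4945 CPM in aged mice and 1826 to 2717 CPM in young mice, and aged mouse 2 was highest for both that sum and Cybb. Ncf1 and Ncf4 were highest in aged mouse 4, and Ncf1 was highest among young mice in mouse 5, which had the lowest neutrophil sum of the young mice. The macrophage sum was highest in aged mouse 4 and young mouse 3, and Cybb in aged mouse 2 and young mouse 4. Relative to the neutrophil sum, Cybb was 40.7 to 56.3 per 1000 in aged mice and 41.3 to 47.8 per 1000 in young mice (exact permutation p = 0.151, adjusted p = 0.339 over the 9 pairs). Relative to the sum of 11 macrophage markers, Cybb was 261 to 538 per 1000 in aged mice and 185 to 353 per 1000 in young mice (exact permutation p = 0.111, adjusted p = 0.339). With the neutrophil marker level as a covariate, which called 13.1% of all genes, none of the 4 subunits was called. With the muscle marker level as a covariate, which called 6.44% of all genes, Cybb, Cyba and Ncf4 were called.

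Other oxidant-producing enzymes were Nox4, a peroxide-forming NADPH oxidase outside phagocytes, and the monoamine oxidases of the outer mitochondrial membrane. Maob was at 3.69, 3.70, 4.97, 1.57 and 3.59 CPM in aged mice, against 1.31, 2.42, 2.36, 1.73 and 2.05 CPM in young mice. Aged mouse 4 lay within the young range and the other 4 aged mice above it (log2 fold change 0.82, standard error 0.26, edgeR adjusted p = 0.0727). Maoa averaged 3.42 ± 0.75 CPM in aged mice and 3.38 ± 0.70 CPM in young mice. Nox4 ranged from 1.34 to 7.86 CPM in aged mice, wider than its range of 4.64 to 7.03 CPM in young mice (log2 fold change -0.36, edgeR adjusted p = 0.534).

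Lipoxygenases add oxygen to arachidonic and related fatty acids, and all 3 had higher means in aged mice without passing the test. Alox15, which makes lipid mediators in eosinophils and macrophages, was at 2.99, 5.01, 3.04, 1.62 and 2.38 CPM in aged mice, against 1.33, 1.84, 1.42, 1.75 and 1.75 CPM in young mice. Aged mouse 4 lay within the young range and the other 4 aged mice above it. The log2 fold change of 0.89 had a standard error of 0.26 and an adjusted p of 0.0504 in edgeR's test. The 9 eosinophil markers, none of them called, summed to 28.8 to 97.3 CPM in aged mice (median 32.4) and 21.4 to 28.6 CPM in young mice (median 26.2). Among aged mice Alox15 and the marker sum were both highest in mouse 2, but Alox15 was lowest in mouse 4 and the sum in mouse 3. Among young mice Alox15 was highest in mouse 2 and the sum in mouse 3. The ratio of Alox15 to that sum was 48.6 to 105 per 1000 in aged mice and 47.9 to 81.7 per 1000 in young mice (exact permutation p = 0.516, adjusted p = 0.929 over the 9 pairs).

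Alox5, which starts leukotriene synthesis in myeloid cells, was at 36.5, 57.0, 42.0, 55.3 and 39.1 CPM in aged mice and at 35.3, 33.0, 25.1, 37.9 and 33.0 CPM in young mice. Aged mouse 1 lay within the young range (log2 fold change 0.49, standard error 0.15, edgeR adjusted p = 0.0585). Alox12, the lipoxygenase of platelets, was at 62.5, 92.1, 88.5, 122 and 55.5 CPM in aged mice and at 63.4, 40.9, 40.6, 45.01 and 89.1 CPM in young mice. The groups overlapped, with young mouse 5 above 3 aged mice (log2 fold change 0.59, standard error 0.26, edgeR adjusted p = 0.184). Among aged mice Alox12 had the same order as the summed platelet and megakaryocyte markers. Among young mice both were highest in mouse 5, but Alox12 was lowest in mouse 3 and the sum in mouse 2. Its ratio to them was 127 to 142 per 1000 in aged mice and 113 to 141 per 1000 in young mice (exact permutation p = 0.127, adjusted p = 0.339 over the 9 pairs). That marker sum was 436 to 865 CPM in aged mice and 333 to 632 CPM in young mice, with none of its 9 tested genes called.

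Red cell precursors are rich in Prdx2 and Gpx1, and are set here beside the markers of those cells, none of which was called. The marker sum was 3582 to 10200.0 CPM in aged mice and 4893 to 10130.0 CPM in young mice. The ratio of Prdx2 to it was 20.3 to 32.6 per 1000 in aged mice and 23.9 to 39.0 per 1000 in young mice (exact permutation p = 0.889), and the ratio of Gpx1 to it was 38.3 to 82.4 per 1000 in aged mice and 46.6 to 65.8 per 1000 in young mice (exact permutation p = 1). A ratio that did not differ does not show that the level per cell was equal.

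**Figure D4:**
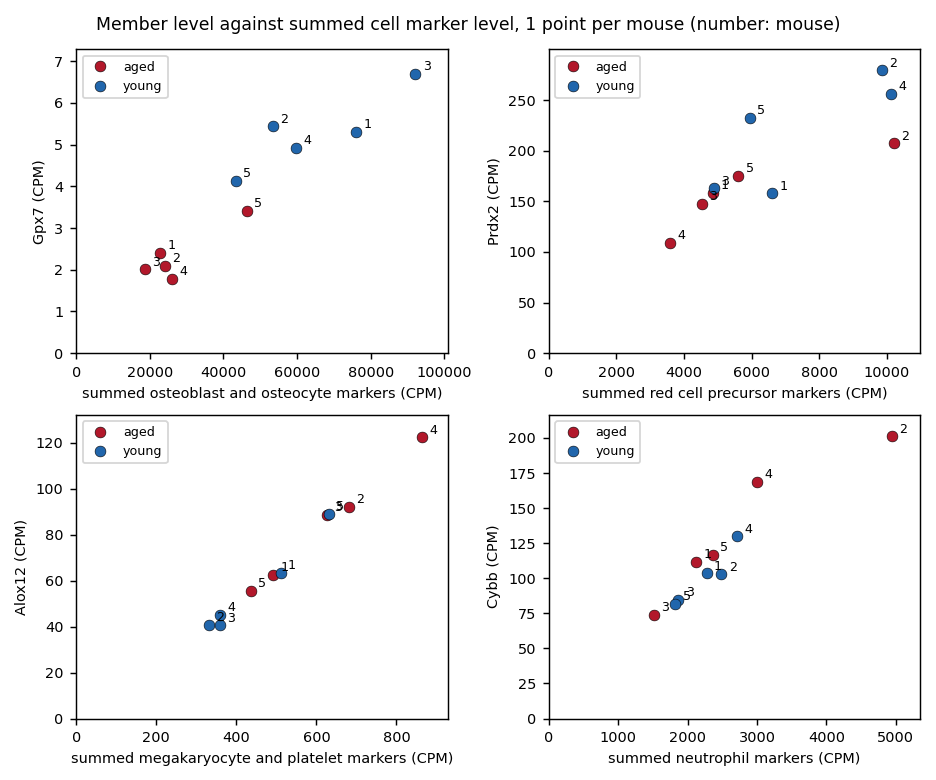
Level of 4 members (vertical axes, CPM) against the summed markers of a cell type (horizontal axes, CPM), 1 point per mouse, aged in red and young in blue, numbered by mouse. Gpx7 and the osteoblast and osteocyte sum are both low in 4 of the 5 aged mice, Alox12 and the platelet sum are both highest in aged mouse 4, and Cybb and the neutrophil sum are both highest in aged mouse 2.

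By place in the cell, the 10 mitochondrial members included none that passed the test, which 7.29% of all tested genes did. Their median log2 fold change was 0.21, with 8 positive. The 5 members of the endoplasmic reticulum had a median of -0.29 and included Gpx7. Of the 25 cytosolic members 3 were higher and none lower. The 5 selenoproteins (Gpx1, Gpx3, Gpx4, Txnrd1 and Txnrd2) included none that passed, with 2 positive and 3 negative values. Members scattered somewhat more among aged mice, with a median SD of log2 CPM of 0.32 in aged mice and 0.25 in young mice, beside 0.29 in aged mice and 0.25 in young mice for all tested genes.

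Genes of the same pathways outside the 48 were taken from 8 textbook lists, of which 178 genes were tested. Of these 6 were higher and 11 lower in aged mice in edgeR's quasi-likelihood test, 9.55% in all, against 7.29% of all tested genes, and without young mouse 2 the counts were 1 higher and 4 lower. Among 26 other aldehyde and quinone clearing enzymes 2 were higher and 2 lower (15.4% called, against 7.29% of all tested genes). Aldh1a2, which makes retinoic acid from retinal, averaged 2.16 ± 0.57 CPM in aged mice and 0.443 ± 0.11 CPM in young mice (log2 fold change 2.31, standard error 0.25, edgeR adjusted p = 0.000258), and its groups of 1.44 to 2.86 CPM in aged mice and 0.292 to 0.589 CPM in young mice did not overlap. Ephx1, an epoxide hydrolase, was higher by 0.45 on the log2 scale and was called in 2 of the 10 fits that left out 1 mouse (adjusted p up to 0.113). The 2 that fell were Aldh1l2, the mitochondrial counterpart of Aldh1l1, with a log2 fold change of -0.69 (called in 7 of 10 such fits), and Aldh18a1 of proline synthesis, with one of -0.45.

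Among 29 other oxidant-producing enzymes and partners 2 were higher and 2 lower (13.8% called, against 7.29% of all tested genes). Aox1, an aldehyde oxidase related to Xdh, averaged 23.7 ± 7.74 CPM in aged mice and 12.2 ± 3.42 CPM in young mice (log2 fold change 0.96, edgeR adjusted p = 0.0379, called in 4 of the 10 fits that left out 1 mouse). Pipox, a peroxisomal sarcosine oxidase, had a log2 fold change of -1.38 at 0.346 CPM in aged mice and 0.897 CPM in young mice, and Pxdn, a peroxidase that crosslinks collagen IV, one of -0.63, with a call in 2 of those 10 fits (adjusted p up to 0.107). The 5 tested genes among other lipoxygenases and partners included none that passed, and Alox5ap, the partner of Alox5, had a log2 fold change of 0.37.

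Among 31 regulators 1 was higher and 4 lower (16.1% called, against 7.29% of all tested genes). Nfe2l1, a relative of Nfe2l2 that drives proteasome genes, averaged 373 ± 108 CPM in aged mice and 188 ± 46.6 CPM in young mice (log2 fold change 0.99, edgeR adjusted p = 0.0162, called in 9 of the 10 fits that left out 1 mouse). Bach2, a repressor that binds related DNA elements and is used by B cells, averaged 54.4 ± 7.33 CPM in aged mice and 105 ± 12.4 CPM in young mice (log2 fold change -0.95, edgeR adjusted p = 0.000558). Of the 10 B and plasma cell markers 4 were lower and 1 was higher in aged mice. The plasma cell gene Jchain was higher (log2 fold change 2.84, edgeR adjusted p = 0.00517), but the plasma cell marker Sdc1 was lower (log2 fold change -0.76, edgeR adjusted p = 0.0118). Mzb1 and Xbp1 of the same list were not called (log2 fold changes 0.12 and 0.22). Slc30a10, a manganese exporter, and Foxo1, a factor that drives stress defense genes, had log2 fold changes of -0.88 and -0.36. They were called in 6 (Slc30a10) and 2 (Foxo1) of the 10 fits that left out 1 mouse, with adjusted p up to 0.0713 and 0.0858.

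The other 4 lists held 1 changed gene each, and the share of tested genes called was 2.78% for glutathione transferases and thiol repair, 4.35% for selenoproteins, 6.67% for NADPH supply and 7.69% for iron handling, against 7.29% of all tested genes. Of 36 tested genes for glutathione transferases and thiol repair 1 was higher, Ggt1, which splits extracellular glutathione (log2 fold change 0.92, 1.33 CPM in aged mice and 0.704 CPM in young mice). Of 23 other selenoproteins and selenium handling genes 1 was lower, Selenof of the endoplasmic reticulum, at 46.8 ± 10.2 CPM in aged mice and 68.1 ± 9.11 CPM in young mice. Of 15 genes that supply NADPH 1 was lower, Pgls of the pentose phosphate pathway (log2 fold change -0.42), and of 13 iron handling genes 1 was lower, Steap3, a ferrireductase of red cell precursors (log2 fold change -0.45). In the 10 fits that left out 1 mouse Pgls was called in 10, Ggt1 in 9, Selenof in 4 (adjusted p up to 0.119) and Steap3 in 2 (adjusted p up to 0.117).

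The calls were not equally firm. Gpx7 was called under each of the settings plotted, Aldh3b2 under all but scaling by total counts, and Gsr under none of the 10 fits that left out 1 mouse. Some members that missed the threshold passed edgeR's test when an aged mouse was left out, and none did when a young mouse was. They were Nqo1, Maob, Alox15 and Aldh5a1 without aged mouse 4 (adjusted p 0.0063 to 0.0362), Ncf4, Alox5 and Aldh2 without aged mouse 1 (0.0201 to 0.0498), Gpx1 and Aldh5a1 without aged mouse 2 (0.0461 and 0.0445), Aldh2 without aged mouse 3 (0.0372) and Gpx3 without aged mouse 5 (0.0495). With DESeq2, 13 of the 48 members passed (11 higher and 2 lower), beside 12.8% of all genes in that fit (7.0% higher and 5.81% lower). They were the 5 genes above and Gpx3, Nqo1, Aldh2, Aldh5a1, Ncf4, Maob, Alox5 and Alox15.

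**Figure D5:**
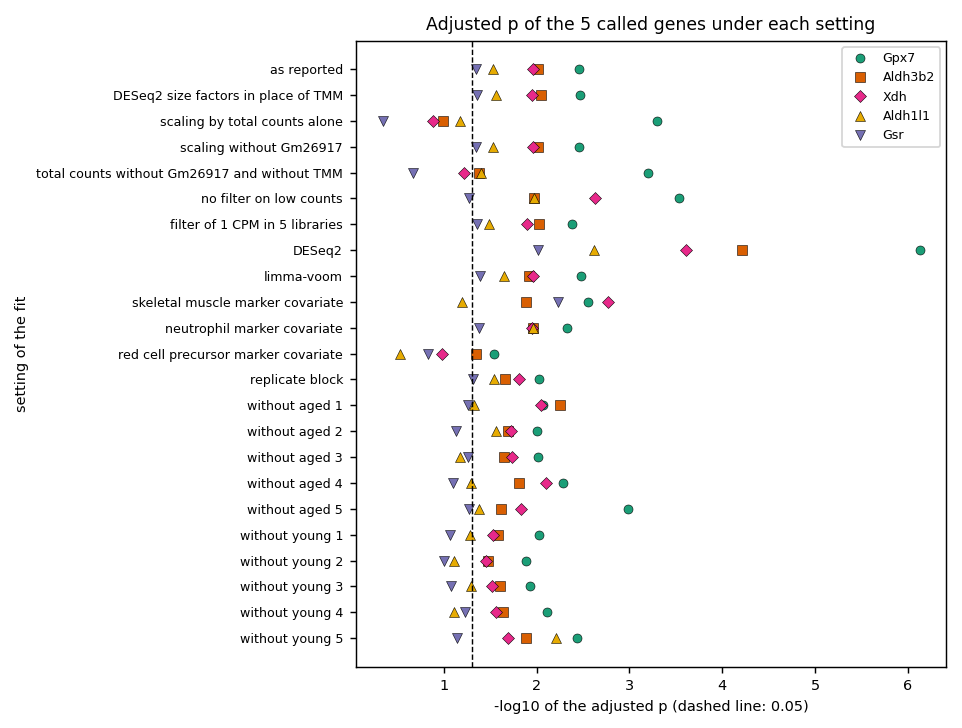
Adjusted p of the 5 called genes (horizontal axis, -log10 scale, with a dashed line at 0.05) under each setting of the fit (vertical axis). Gpx7 lies right of the line in every setting, and Gsr lies left of it whenever any single mouse is left out.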

How the data were processed

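Femur RNA of 5 aged and 5 young mice was analysed, 1 library per mouse. The authors deposited a table of raw counts per gene with gene lengths (other columns with coordinates), made, per the paper's methods, by trimming with Cutadapt, alignment with STAR to the mouse genome GRCm38.p6 and counting with featureCounts. The labels name a human build, but the identifiers are mouse. The strand setting of the counting was not given in the sources used here, and 11 members share exon bases with an opposite-strand gene.

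Counts were fitted in R 4.3.3 with edgeR 4.0.16 (filterByExpr with minimum count 10 and minimum total 15, TMM scaling, robust quasi-likelihood test, aged over young, no covariate). Genes were called at a Benjamini-Hochberg adjusted p of at most 0.05 over 22088 genes, whose median standard error was 0.178 on the log2 scale. CPM include TMM scaling. Fold changes come from the fit, and standard errors from its F statistic. Alternatives used DESeq2 1.42.0, limma-voom (limma 3.58.1), other scalings and filters, a minimum fold of 1.5, marker covariates (muscle, neutrophil, red cell), the replicate number as a block and omission of each mouse. Total counts without Gm26917 and the ratios of a member to a marker sum were chosen after the data were seen. The ratios were compared by exact permutation over mice. The fit was tested on simulated data. Figures and tables used Python 3.11.15, pandas 2.3.3 and matplotlib 3.10.9.

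The 48 members and all lists were chosen with earlier results of these data known. Per-mouse values are given for called members and for up to 3 further members of each role with the smallest p, and of each textbook list up to 3 called genes per direction are named. Some genes that this rule or the overlap with opposite-strand genes would name are not reported here.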

Additional observations from a re-analysis of the deposited data

Results flagged for a closer look

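In 6 of the 96 groups of 5 mice (48 genes in each age group), a single mouse lay far from the other 4, by Dixon's test at 95%, which chance passes in about 1 in 20 groups. Young mouse 5 stood apart for 3 genes. It was low for Sod1 (30.6 CPM) and Txn1 (17.3 CPM) and high for Srxn1 (21.2 CPM). Aged mouse 4 was low for Prdx3 (24.3 CPM), aged mouse 3 was high for Txn2 (72.1 CPM), and aged mouse 1 was low for Aldh3b2 (2.74 CPM).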

How the results depend on the processing

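No member or named gene that was called changed direction under any alternative. Counts below are of all tested genes, of the 48 members and of the 178 genes of the textbook lists, in that order where several are given, beside 812 higher and 798 lower genes, 4 higher and 1 lower members, and 6 higher and 11 lower list genes as reported. Scaling by total counts gave 285 higher genes, 0 higher members and 3 higher list genes, and total counts without Gm26917 gave 478, 2 and 3. With no filter on low counts 8 members were higher (906 higher and 816 lower genes), and with the muscle covariate also 8 (802 higher and 621 lower genes). DESeq2 gave 1545 higher and 1283 lower genes, 11 higher and 2 lower members, and 14 higher list genes. With the neutrophil covariate the counts were 1617 higher and 1281 lower genes, 9 higher and 4 lower members, and 16 higher and 17 lower list genes. With the red cell covariate they were 159 higher and 190 lower genes, 2 higher members, and 3 higher and 1 lower list genes. A minimum fold of 1.5 left 5 lower list genes. Leaving out 1 mouse at a time gave 300 to 856 higher and 386 to 830 lower genes, 2 to 6 higher and 1 to 2 lower members, and 1 to 13 higher and 4 to 10 lower list genes. The lowest counts of genes and list genes came without young mouse 2, the highest counts of genes without young mouse 5. The cause of these shifts was not tested.

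Same-numbered mice did not deviate together (correlations of -0.154 to 0.169, over 0.1 for 2 of 5 numbers, and 1 of 10 libraries best with its own number). The labels do not state what the numbers mean, so whether they pair the mice is not known. With the replicate number as a block 957 genes were higher and 675 lower, 6 members were higher and 1 lower, and 9 list genes were higher and 8 lower. The limits of this comparison are 5 mice per age, an age difference that cannot be told apart from supplier, RNA of mixed cells, and low counts for Mt2, with as few as 7 in a library.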
